A study of Mus musculus with 12 samples.

Results

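Matrix metalloproteases, ADAMs, ADAMTS proteases and their TIMP inhibitors were examined as protein-coding genes whose symbol was Mmp, Timp, Adam or Adamts followed by a digit. The rule found 78 of the 54532 genes in the table, of which 22 were Mmp, 4 Timp, 33 Adam and 19 Adamts genes. RNA was sequenced from C2C12 cells, an established line of mouse myoblasts, 48 h after transfection with siRNA at 30 nM. The 4 groups were cells given a control siRNA (siCONTROL), cells depleted of KEAP1 (siKEAP1), cells in which CCNF was lowered (siCCNF) and cells depleted of both (siKEAP1/siCCNF), with 3 biological replicates in each. All groups therefore shared the transfection itself, and the control cells carried a siRNA too. KEAP1 is the substrate adaptor of the ubiquitin ligase that keeps the oxidative stress factor NRF2 low, and CCNF (cyclin F) is the substrate receptor of another ubiquitin ligase. The experiment asks what lowering CCNF does to gene expression with and without KEAP1.

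Matrix metalloproteases are zinc enzymes that are secreted or held at the cell surface and that cut collagens, gelatin and other matrix proteins. ADAMs sit in the membrane and shed the outer parts of other membrane proteins, although some members have lost the catalytic site. ADAMTS proteases are secreted and cut proteoglycans or process procollagens, and TIMPs bind the active sites of these enzymes. The proteases are made as inactive precursors, so that a transcript level is not an activity. In muscle, matrix turnover by these enzymes accompanies the migration and fusion of myoblasts and the repair of fibres.

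Total counts per library lay between 18464209 and 37743198, and every siCCNF library was deeper than every siCONTROL library. Keap1 had 90.0, 89.0 and 84.3 CPM (counts scaled to the TMM-adjusted library size of the genes tested) in the siCONTROL libraries, 12.3, 12.8 and 12.7 in siKEAP1, 86.5, 88.6 and 80.3 in siCCNF and 22.2, 27.0 and 23.1 in siKEAP1/siCCNF. Ccnf had 85.5, 80.1 and 77.7 CPM, 56.8, 64.9 and 56.4, 19.7, 20.5 and 21.3 and 23.7, 24.1 and 25.6 in the same order. Keap1 was thus 6.95-fold lower after siKEAP1 alone and 3.63-fold lower in cells depleted of both, so that the joint depletion and a weaker loss of Keap1 cannot be told apart in that group. All 7 listed myoblast markers exceeded 1 CPM on average in each group, with summed levels of 1743 to 2076 CPM in siCONTROL, 1111 to 1141 in siKEAP1, 779 to 810 in siCCNF and 767 to 858 in siKEAP1/siCCNF. Summed markers of muscle differentiation (8 genes) ran from 53.4 to 124 CPM in siCONTROL, 3.03 to 3.36 in siKEAP1, 15.1 to 21.7 in siCCNF and 5.98 to 6.98 in siKEAP1/siCCNF. Summed macrophage markers (6 genes) ran from 11.2 to 13.9 CPM in siCONTROL and from 27.6 to 33.2 in siKEAP1, with Itgam at 0 in all 12 libraries and Ptprc no higher than 0.122 CPM in any. These shifts moved with the groups, and their part in the protease results was not tested. Fewer cells expressing a gene and less RNA per cell cannot be told apart in bulk samples. The libraries siCONTROL replicate 1 and siKEAP1/siCCNF replicate 3 stood apart, because their deviations from the group mean fell with gene length (r across 15122 genes of -0.302 and -0.293, a description over genes of the same library). The highest summed differentiation markers of siCONTROL were also those of replicate 1, where Myog had 74.6 CPM beside 32.0 and 29.3 in replicates 2 and 3.

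Of the 78 members, 22 had no count in any library and 15 more had at most 15 counts in a library and were not tested. The remaining 41 (12 Mmp, 3 Timp, 13 Adam and 13 Adamts genes) were tested with all 15122 genes that passed the filter. Per length, Timp2 stood highest in siCONTROL with 337 ± 24.1 FPKM (mean ± SD, n = 3), followed by the gelatinase Mmp2 with 239.6 ± 6.25, the membrane-type protease Mmp14 with 129.9 ± 2.91 and Timp1 with 116 ± 12.5. Mmp14 and Timp1 differed by less than 2 SD of Timp1, whereas Timp2, Mmp2 and Mmp14 were separated by more than their spread. Adam9 (69.2 ± 7.71 FPKM) and Adam10 (51.1 ± 6.55 FPKM) led the Adam genes, and Adamts7 (13.5 ± 1.51 FPKM) and Adamts4 (10.4 ± 0.202 FPKM) led the Adamts genes. In all, 4 members exceeded 100 FPKM, 13 exceeded 10 FPKM and 27 exceeded 1 FPKM in siCONTROL.

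The FPKM summed per library differed in direction between families. Mmp genes summed to 418 ± 10.9 FPKM in siCONTROL, 278 ± 3.60 in siKEAP1, 563 ± 16.2 in siCCNF and 455 ± 22.9 in siKEAP1/siCCNF, and Mmp2 alone made up 57.3% to 68.3% of that sum. Adamts genes followed the same order, with 63.0 ± 5.20, 47.3 ± 0.719, 111 ± 2.25 and 94.6 ± 4.23 FPKM. Adam genes went the other way after siKEAP1, with 172 ± 17.6, 242 ± 3.05, 154 ± 1.55 and 150 ± 14.4 FPKM. Timp genes stayed within a narrow range of group means, from 435 ± 18.3 FPKM in siKEAP1/siCCNF to 489 ± 3.53 in siKEAP1. The low Adam sums of siCONTROL replicate 1 (152 FPKM) and siKEAP1/siCCNF replicate 3 (134 FPKM) came from the libraries that stood apart. These sums were not tested, and they follow the most abundant members: Adam9 alone made up 38.0% to 41.1% of the Adam sum. In the tests below, 5 Mmp genes rose and 5 fell after siKEAP1, while the Mmp sum fell. The median log2 change of the tested genes was then 0.36 for Mmp and 0.08 for Adam genes.

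**Figure D1:**
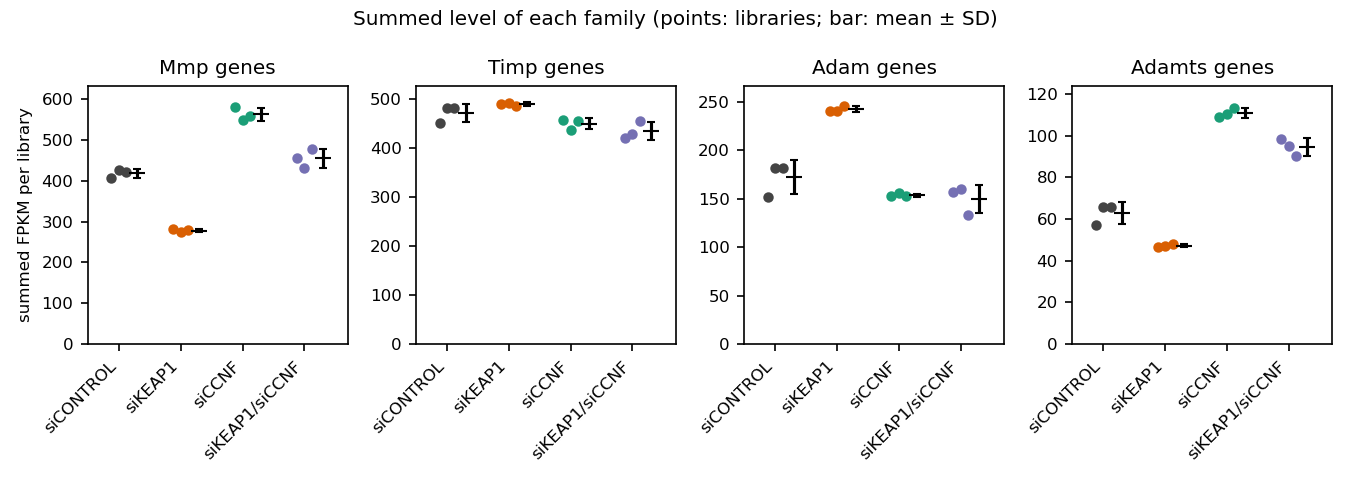
Summed FPKM of all Mmp, Timp, Adam and Adamts genes in each library (points), with the mean ± SD of each group of 3 beside them. The Mmp sum was lowest in siKEAP1 (278) and highest in siCCNF (563), the Adam sum was highest in siKEAP1 (242), and the Timp sums lay between 421 and 492 FPKM in all libraries.

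Depletion of KEAP1 raised Mmp9, Mmp10, Mmp13, Adam8 and Adam23 by more than 2-fold and lowered Mmp11, Mmp23, Adamts1, Adamts2 and Adamts5 by more than 2-fold. Of the 41 tested members, 11 rose and 13 fell in edgeR's quasi-likelihood test (Benjamini-Hochberg adjusted p under 0.05), beside 20.4% and 20.2% of all genes tested that were called higher and lower. The 10 members past 2-fold stand beside 11.5% of all genes. Among Mmp genes 5 rose and 5 fell, among Adam genes 5 rose and 1 fell, and among Adamts genes none rose and 7 fell. The median log2 change was 0.36 for Mmp, 0.10 for Timp, 0.08 for Adam and -0.40 for Adamts genes, and -0.01 over all genes tested. Every comparison with siCONTROL shares the same 3 control libraries.

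Lowering CCNF raised 9 of the 13 Adamts genes tested. Over all members 15 rose and 8 fell, beside 22.5% and 25.5% of all genes, and 12 passed 2-fold, beside 11.4%. Among Adamts genes 1 fell, among Mmp genes 6 rose and 1 fell, and among Adam genes none rose and 5 fell. The median log2 change was 0.87 for Adamts, 0.49 for Mmp, 0.17 for Timp and -0.22 for Adam genes, and 0.01 over all genes. The members past 2-fold were Mmp10, Mmp11, Mmp13, Mmp16, Adamts1, Adamts3, Adamts4, Adamts5 and Adamts17, which rose, and Mmp15, Adam5 and Adam8, which fell.

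Cells depleted of both differed from siKEAP1 cells in more members than from siCCNF cells, and those that differed from siCCNF cells were led by Mmp11 and Adamts2, which were lower, and Adam8 and Adam23, which were higher. Against siCONTROL, 13 members rose and 11 fell, beside 20.6% and 23.6% of all genes, and 6 passed 2-fold, beside 10.3%: Mmp13, Adamts3, Adamts5 and Adamts17 rose, and Mmp15 and Adam5 fell. Against siKEAP1, 15 rose and 14 fell, beside 24.1% and 26.9% of all genes, and 14 passed 2-fold, beside 14.5%. Against siCCNF, 2 rose and 5 fell, beside 3.00% and 2.19% of all genes, and 1 (Mmp11) passed 2-fold, beside 0.727%. The last count of 7 was 11 without siCONTROL replicate 1, which enters the shared estimate of the spread, and 13 without both libraries that stood apart. By family, 10 Adamts genes rose and none fell against siKEAP1, whereas 8 Adam genes fell and 1 rose.

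**Figure D2:**
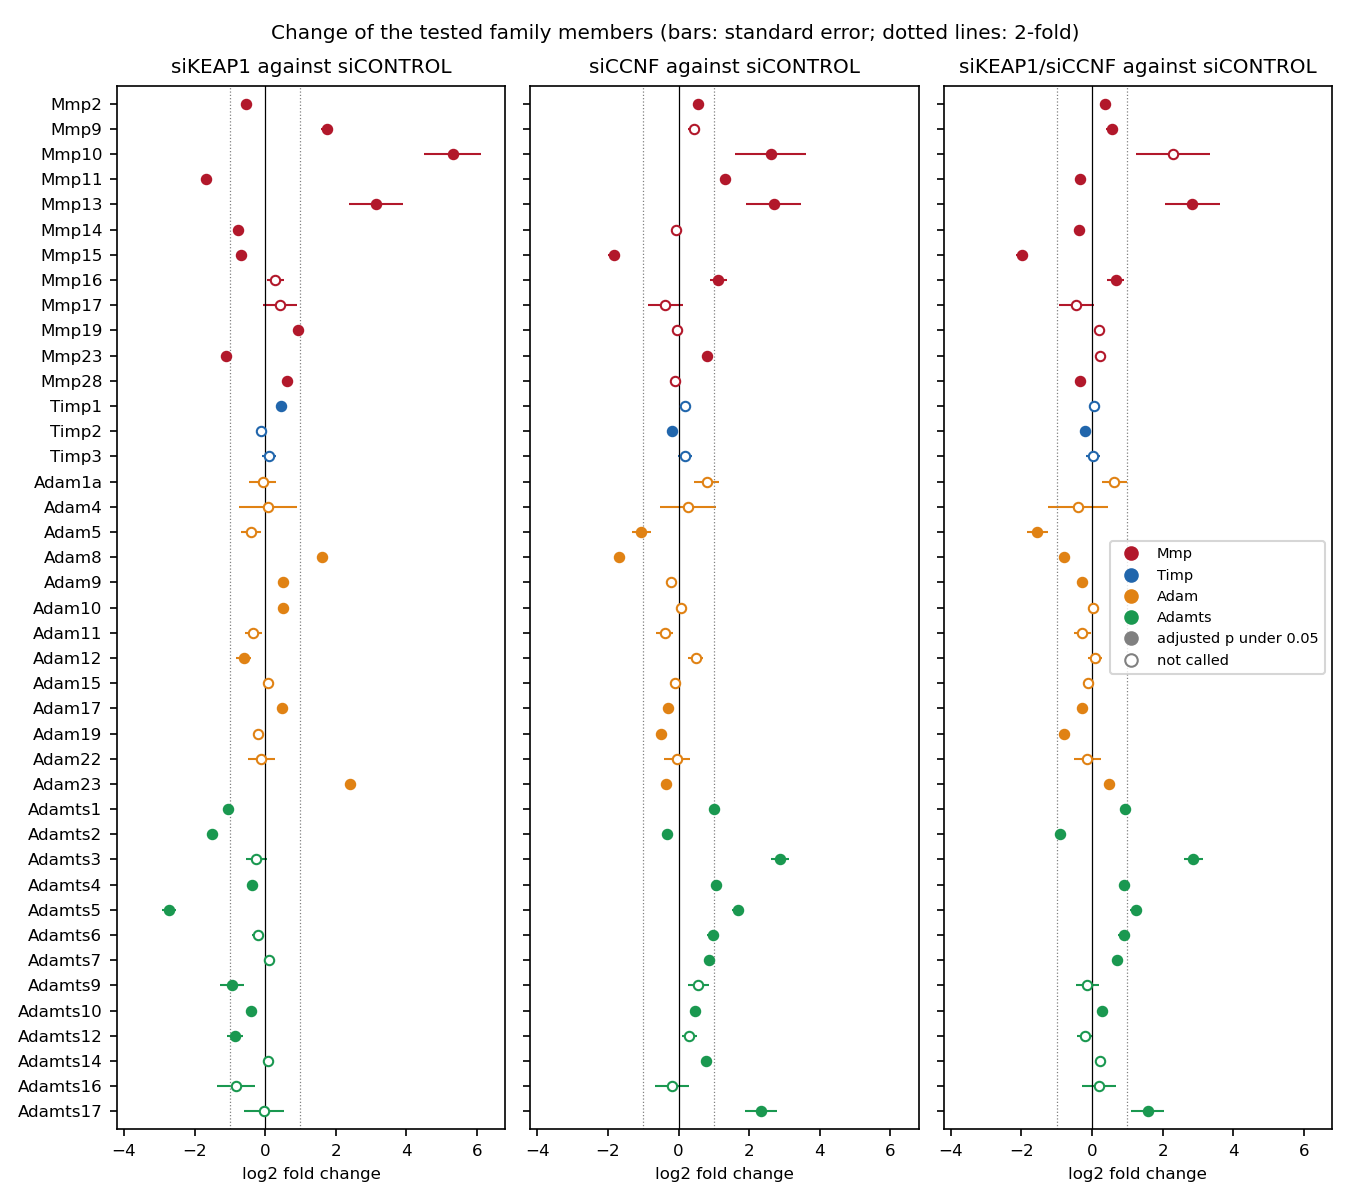
Log2 fold change against siCONTROL (x axis) of the 41 tested members (y axis, coloured by family), with the standard error as a bar. Filled points passed an adjusted p of 0.05 and dotted lines mark 2-fold. Adamts genes lie left of 0 or uncalled after siKEAP1 and mostly right of 0 after siCCNF.

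The gelatinases Mmp2 and Mmp9, which degrade denatured collagen and basement membrane collagen, moved in opposite directions after depletion of KEAP1. Mmp2 (chr8:92827291-92853420, GRCm38) had 791, 832 and 819 CPM in siCONTROL, 561, 543 and 565 in siKEAP1, 1194, 1167 and 1189 in siCCNF and 1058, 1000.0 and 1099.6 in siKEAP1/siCCNF. No 2 groups overlapped, with siKEAP1 lowest and siCCNF highest. Mmp2 fell by 0.55 on the log2 scale after siKEAP1 (SE 0.06, adjusted p = 4.69e-06) and rose by 0.54 after siCCNF (adjusted p = 4.51e-06). The difference of siKEAP1/siCCNF from siCCNF was not called (-0.17 ± 0.06, adjusted p = 0.109), but was with DESeq2 (adjusted p = 0.0229) and without siCONTROL replicate 1, alone (adjusted p = 0.0385) or together with siKEAP1/siCCNF replicate 3 (adjusted p = 0.00314). Mmp9 had 2.56, 2.77 and 2.41 CPM in siCONTROL, 6.87, 9.44 and 9.65 in siKEAP1, 3.99, 3.11 and 3.33 in siCCNF and 3.77, 3.42 and 4.31 in siKEAP1/siCCNF. The siKEAP1 libraries lay above all others, with a log2 change of 1.75 ± 0.17 (SE, adjusted p = 3.67e-06). The smaller rise of Mmp9 in cells depleted of both (0.57 ± 0.18, adjusted p = 0.0205) had an adjusted p of 0.0703 without siCONTROL replicate 3 and of 0.0685 without siKEAP1/siCCNF replicate 3.

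Mmp10 (stromelysin-2) and Mmp13 (the main interstitial collagenase of rodents) were nearly silent in control cells. They lie in a cluster of 9 Mmp genes on chromosome 9 (chr9:7272514-7699585, GRCm38), of which no other member passed the filter. Mmp10 had 3 counts in the siCONTROL libraries together, 147 in siKEAP1, 30 in siCCNF and 21 in siKEAP1/siCCNF, so that the ratio to siCONTROL was 43.7 (95% counting interval 14.7 to 214), 6.27 (1.95 to 32.1) and 5.35 (1.60 to 28.0). These intervals cover counting error only. In CPM the siKEAP1 libraries stood at 1.77, 2.51 and 2.06, above 0.114, 0.739 and 0.188 in siCCNF and 0.119, 0.431 and 0.176 in siKEAP1/siCCNF. The rise after siKEAP1 had an adjusted p of 0.000141 and the fall from siKEAP1 to siKEAP1/siCCNF one of 0.000674, whereas the siCCNF call (adjusted p = 0.0459) was lost without each siCONTROL library, each siKEAP1 library, siCCNF replicate 2 or siKEAP1/siCCNF replicate 3 (adjusted p 0.0506 to 0.190 over these settings). Mmp13 had 6 counts in siCONTROL, 62 in siKEAP1, 63 in siCCNF and 61 in siKEAP1/siCCNF, giving ratios of 9.21 (4.0 to 26.1), 6.59 (2.86 to 18.6) and 7.77 (3.37 to 22.0). Each of these Mmp13 ratios lay within the intervals of the others, and 42 of the 61 counts came from siKEAP1/siCCNF replicate 2 and that group's call was lost without it (adjusted p = 0.0636). Mmp3 (stromelysin-1) of the same cluster, chosen after its values were seen, had 0 counts in siCONTROL, which allows up to 0.0488 CPM, and 15, 10 and 25 in siKEAP1, siCCNF and siKEAP1/siCCNF.

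The promoter windows of members over 2-fold higher after siKEAP1 are shown because 2 of them, Mmp10 and Mmp13, hold an AP-1 element, TGANTCA, which binds FOS and JUN proteins and is printed in capitals. Each window runs from 250 bases before to 50 bases after the gene start in RefSeq (GRCm38.p6), 5′ to 3′ on the gene's strand. Windows were given for 4 of these 5 genes and for 25 of the 41 tested members.
Mmp10 (chr9:7502092-7502391, plus strand): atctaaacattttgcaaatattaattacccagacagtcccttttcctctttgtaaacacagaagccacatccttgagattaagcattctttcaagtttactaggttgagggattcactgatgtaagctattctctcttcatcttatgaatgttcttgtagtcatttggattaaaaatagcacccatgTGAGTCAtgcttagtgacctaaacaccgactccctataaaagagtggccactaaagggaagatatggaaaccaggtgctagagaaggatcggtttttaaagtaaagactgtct
Mmp13 (chr9:7272264-7272563, plus strand): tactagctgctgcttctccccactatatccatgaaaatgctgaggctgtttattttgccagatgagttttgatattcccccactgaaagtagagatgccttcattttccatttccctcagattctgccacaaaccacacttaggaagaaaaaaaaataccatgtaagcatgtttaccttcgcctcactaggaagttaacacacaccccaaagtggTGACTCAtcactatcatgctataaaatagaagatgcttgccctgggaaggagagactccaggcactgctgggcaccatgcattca
Adam8 (chr7:139992513-139992812, minus strand): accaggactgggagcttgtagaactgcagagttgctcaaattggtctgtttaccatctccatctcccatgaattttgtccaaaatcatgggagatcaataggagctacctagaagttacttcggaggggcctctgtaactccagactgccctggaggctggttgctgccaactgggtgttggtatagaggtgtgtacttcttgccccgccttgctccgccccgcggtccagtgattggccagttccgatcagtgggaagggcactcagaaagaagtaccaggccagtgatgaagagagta
Adam23 (chr1:63445641-63445940, plus strand): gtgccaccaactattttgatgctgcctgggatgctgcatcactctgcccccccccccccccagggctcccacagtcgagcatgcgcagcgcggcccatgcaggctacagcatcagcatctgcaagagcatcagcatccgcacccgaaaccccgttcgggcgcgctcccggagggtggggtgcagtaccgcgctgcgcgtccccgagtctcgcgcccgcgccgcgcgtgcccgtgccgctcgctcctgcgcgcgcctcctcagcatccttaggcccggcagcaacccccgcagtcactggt
The element started 63 bases before the gene start in Mmp10 and 35 bases before it in Mmp13. Adam19, which was not called after siKEAP1, held one 131 bases before its start. Searched on both strands, these letters occurred in 3 of the 25 members with a window and in 7.81% of 32851 windows of the same length. The core of the antioxidant response element, TGACNNNGC, which NRF2 binds, occurred in 12.4% of windows and in Mmp15, Adamts2 and Timp2 among the members with a window, but in none of the sequences above. After siKEAP1 Mmp15 and Adamts2 were lower and Timp2 was not called. A match is only a match of letters.

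Mmp11 (stromelysin-3, which is activated inside the cell by furin-like proteases) responded to both siRNAs, and its interaction was not called (adjusted p = 0.920). It had 73.4, 75.1 and 73.4 CPM in siCONTROL, 22.5, 22.4 and 24.1 in siKEAP1, 198, 176 and 180.3 in siCCNF and 56.5, 54.9 and 63.0 in siKEAP1/siCCNF, so that none of the groups overlapped. The log2 change was -1.69 ± 0.07 after siKEAP1 (adjusted p = 3.00e-09), 1.32 ± 0.07 after siCCNF (adjusted p = 1.80e-08) and -0.35 ± 0.07 in cells depleted of both (adjusted p = 0.00122). The effect of siCCNF was 1.32 in cells with KEAP1 and 1.34 in cells depleted of it, a difference of 0.02 ± 0.10. Mmp23, a protease tethered to the membrane by its amino-terminal end, had 15.4 ± 0.0873 CPM in siCONTROL, 7.08 ± 0.740 in siKEAP1, 26.7 ± 1.91 in siCCNF and 17.9 ± 1.68 in siKEAP1/siCCNF (SD, n = 3). Its log2 change was -1.12 ± 0.11 after siKEAP1 and 0.80 ± 0.10 after siCCNF, and its interaction was called (0.54 ± 0.14, adjusted p = 0.0171).

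**Figure D3:**
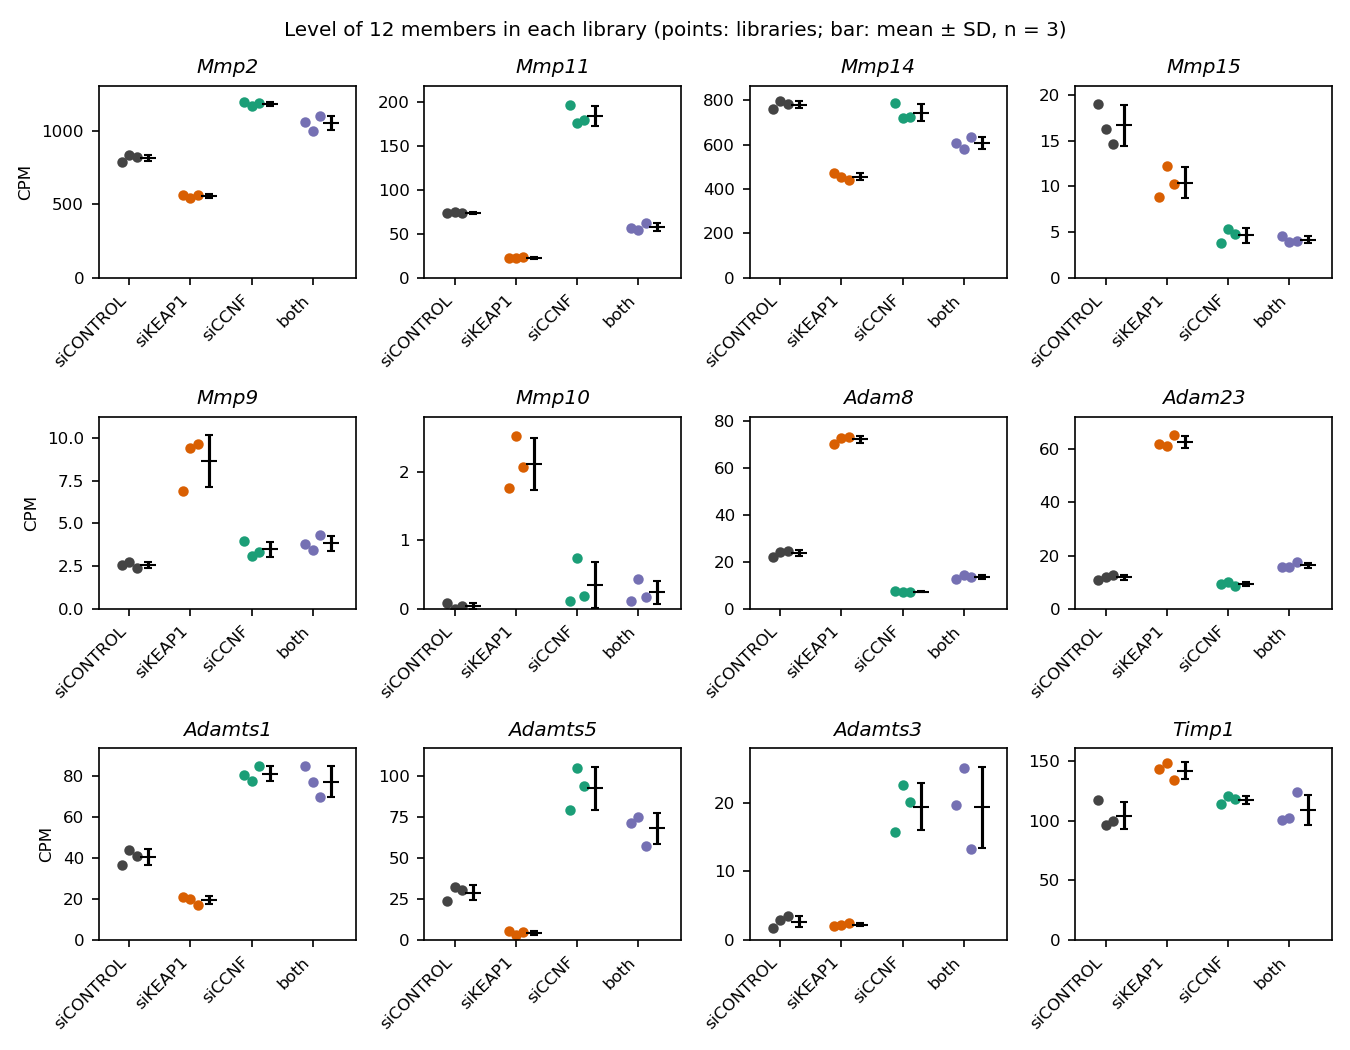
CPM (y axes, from 0) of 12 members in each library (points) of the 4 groups, with the mean ± SD of 3 libraries beside them; "both" is siKEAP1/siCCNF. Mmp9, Mmp10, Adam8 and Adam23 were highest in siKEAP1, while Mmp2, Mmp11, Adamts1 and Adamts5 were lowest there and had their highest mean in siCCNF.

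The membrane-type proteases, which act at the cell surface and of which Mmp14 activates pro-Mmp2, were split. Mmp14 had 761, 795 and 785 CPM in siCONTROL, 471, 454 and 441 in siKEAP1, 789, 718 and 724 in siCCNF and 609, 579 and 633 in siKEAP1/siCCNF. It fell after siKEAP1 (log2 change -0.78 ± 0.06, adjusted p = 4.54e-07), while the siCCNF libraries overlapped the control (-0.07 ± 0.06, adjusted p = 0.371). Mmp15 had 19.0, 16.3 and 14.6 CPM in siCONTROL and fell to 8.78, 12.2 and 10.2 in siKEAP1, 3.76, 5.37 and 4.83 in siCCNF and 4.60, 3.91 and 4.04 in siKEAP1/siCCNF. Its fall after siCCNF (-1.85 ± 0.16, adjusted p = 1.05e-06) was larger in size than after siKEAP1 (-0.68 ± 0.15), and the interaction was not called (0.53 ± 0.23, adjusted p = 0.128). Mmp16 had 4.57, 10.3 and 9.05 CPM in siCONTROL, 10.4, 8.83 and 9.91 in siKEAP1, 17.4, 16.3 and 18.0 in siCCNF and 15.7, 13.0 and 9.27 in siKEAP1/siCCNF, and rose after siCCNF (1.12 ± 0.24, adjusted p = 0.00165). The low control value came from siCONTROL replicate 1, and the call for cells depleted of both (0.68 ± 0.24, adjusted p = 0.0354) was lost without that library or without several others, with adjusted p of 0.0504 to 0.147 over the settings that lost it.

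Among ADAMs, Adam8 and Adam23 gave the widest changes. Adam8, a sheddase known mainly from myeloid cells, had 22.3, 24.3 and 24.8 CPM in siCONTROL, 70.4, 73.1 and 73.3 in siKEAP1, 7.58, 7.31 and 7.06 in siCCNF and 12.7, 14.6 and 13.7 in siKEAP1/siCCNF. No groups overlapped, and the log2 change was 1.60 ± 0.07 after siKEAP1 (adjusted p = 4.67e-09) and -1.70 ± 0.08 after siCCNF (adjusted p = 7.28e-09). The summed macrophage markers given above were higher in the same siKEAP1 libraries, through Cd14 and Cd68. Itgam had no counts, and Ptprc had 0.0464, 0.122 and 0 CPM in siKEAP1 and 0 in the other groups. Csf1r averaged 0.527 CPM in siCONTROL and 0.370 in siKEAP1, and Adgre1 was at 0 in both. The part of other cells in the Adam8 values was not tested. Adam23, a catalytically inactive member that binds integrins and LGI proteins, had 10.9, 11.9 and 12.5 CPM in siCONTROL, 61.8, 61.0 and 65.1 in siKEAP1, 9.32, 9.95 and 8.62 in siCCNF and 15.8, 15.8 and 17.5 in siKEAP1/siCCNF. Its rise after siKEAP1 was 2.41 ± 0.09 on the log2 scale (adjusted p = 5.68e-10), and 0.47 ± 0.09 was left in cells depleted of both (adjusted p = 0.000604).

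The broadly used sheddases Adam9, Adam10 (which cleaves Notch receptors) and Adam17 (which releases TNF and EGF receptor ligands) rose by similar amounts after depletion of KEAP1. Adam10 had 215, 272 and 271 CPM in siCONTROL, 356, 356 and 361 in siKEAP1, 269, 266 and 258 in siCCNF and 285, 278 and 217 in siKEAP1/siCCNF. Adam17 had 116, 135 and 132, 178, 175 and 184, 103, 106 and 102 and 111, 113 and 92.5 CPM in the same order. The siKEAP1 libraries lay above every other library for both genes. Log2 changes after siKEAP1 were 0.52 ± 0.09 for Adam9, 0.50 ± 0.10 for Adam10 and 0.49 ± 0.08 for Adam17 (adjusted p = 0.000349, 0.00177 and 0.000302). From siKEAP1 to siKEAP1/siCCNF the 3 genes fell by 0.80, 0.46 and 0.76. Both libraries that stood apart were the lowest of their group for Adam10 and Adam17, and the small falls of Adam9 (-0.28) and Adam17 (-0.27) in cells depleted of both were lost without siCONTROL replicate 2 (for Adam9 also without siCONTROL replicate 3 or siKEAP1/siCCNF replicate 3), with adjusted p up to 0.0743. With the compared libraries alone the adjusted p was 0.0947 for Adam9 and 0.0841 for Adam17.

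Adam12 (meltrin alpha, linked to myoblast fusion and muscle repair) had 22.5, 43.8 and 44.5 CPM in siCONTROL, 21.2, 25.6 and 25.8 in siKEAP1, 51.0, 56.2 and 47.3 in siCCNF and 41.5, 43.9 and 31.5 in siKEAP1/siCCNF. The control replicate that stood apart lay among the siKEAP1 values, so the groups overlapped. The fall after siKEAP1 (-0.61 ± 0.21, adjusted p = 0.0352) was lost without siCONTROL replicate 2 or 3 or without any siKEAP1 library (adjusted p up to 0.133 over the settings that lost it). It ran from -0.88 to -0.46 when 1 library was left out. The rise after siCCNF (0.48, adjusted p = 0.0702) and the interaction (0.21, adjusted p = 0.672) were not called. Without both libraries that stood apart they were 0.22 (adjusted p = 0.0369) and 0.60 (adjusted p = 0.00123). The rise from siKEAP1 to siKEAP1/siCCNF (0.69 ± 0.21, adjusted p = 0.0147) was lost without siKEAP1 replicate 1 or siKEAP1/siCCNF replicate 2 (adjusted p up to 0.0630). Adam5, a gene best known from testis, was scarce, at 3.36 ± 0.779 CPM in siCONTROL and 1.59 ± 0.507 in siCCNF, and fell after siCCNF (-1.06 ± 0.28, adjusted p = 0.00657).

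Of the 4 proteoglycan-cleaving Adamts genes tested, Adamts1, Adamts4 and Adamts5, which cut aggrecan and versican, fell after siKEAP1 and rose after siCCNF. The scarce Adamts9 fell after siKEAP1 and was not called after siCCNF. Adamts5 had 23.6, 32.6 and 30.7 CPM in siCONTROL, 5.20, 3.04 and 4.87 in siKEAP1, 79.2, 105 and 93.9 in siCCNF and 71.8, 75.2 and 57.6 in siKEAP1/siCCNF. The log2 change was -2.73 ± 0.20 after siKEAP1 (adjusted p = 2.20e-07) and 1.68 ± 0.17 after siCCNF (adjusted p = 3.39e-06), and from siKEAP1 to siKEAP1/siCCNF it was 3.97 ± 0.20. No groups overlapped. Adamts1, its neighbour on chromosome 16 (chr16:85793827-85803113 beside chr16:85856173-85901828 for Adamts5, both on the minus strand), had 36.3, 43.8 and 40.8 CPM in siCONTROL, 21, 20 and 17.1 in siKEAP1, 80.3, 77.6 and 84.8 in siCCNF and 84.7, 77.1 and 69.6 in siKEAP1/siCCNF. Its log2 change was -1.06 ± 0.10 after siKEAP1 and 1.01 ± 0.10 after siCCNF (adjusted p = 2.88e-06 and 2.66e-06), and the siCCNF and siKEAP1/siCCNF libraries overlapped. Adamts4 was at 50.6 ± 0.878, 39.0 ± 0.754, 106 ± 6.61 and 93.9 ± 3.87 CPM (SD, n = 3).

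The procollagen N-proteinases, which trim the amino-terminal ends of fibrillar procollagens, did not move together. Adamts2 fell in every depleted group, from 75.0, 86.9 and 86.3 CPM in siCONTROL to 30.4, 29.3 and 27.7 in siKEAP1, 67.1, 64.4 and 65.4 in siCCNF and 44.4, 43.6 and 43.5 in siKEAP1/siCCNF. Its log2 change was -1.50 ± 0.07 after siKEAP1 (adjusted p = 5.77e-09) and -0.33 ± 0.07 after siCCNF (adjusted p = 0.00132). Adamts3 had 1.75, 2.82 and 3.42 CPM in siCONTROL, 2.04, 2.23 and 2.41 in siKEAP1, 15.7, 22.5 and 20.1 in siCCNF and 19.7, 25.0 and 13.2 in siKEAP1/siCCNF. It did not pass the test after siKEAP1 (-0.25 ± 0.31, adjusted p = 0.564) and rose by 2.87 ± 0.26 after siCCNF (adjusted p = 1.54e-06) and by 2.87 ± 0.26 in cells depleted of both. All siCCNF and siKEAP1/siCCNF libraries lay above all siCONTROL and siKEAP1 libraries. Adamts7, which cleaves cartilage oligomeric matrix protein, rose from 85.6 ± 9.73 CPM in siCONTROL to 156 ± 7.72 in siCCNF (0.87 ± 0.09 on the log2 scale), and the scarce Adamts17 rose from 0.292 ± 0.0387 to 1.49 ± 0.633 CPM (adjusted p = 0.000795).

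Of the TIMP inhibitors, Timp1 and Timp2 were abundant and moved little. Timp1 had 117, 96.2 and 99.4 CPM in siCONTROL, 143, 148 and 134 in siKEAP1, 114, 120.3 and 118 in siCCNF and 100.2, 103 and 124 in siKEAP1/siCCNF, and rose after siKEAP1 (0.44 ± 0.09, adjusted p = 0.00169), where its libraries lay above all others. Timp2, which also takes part in the activation of pro-Mmp2 by Mmp14, had 1324 ± 95.2 CPM in siCONTROL, 1216 ± 16.0 in siKEAP1, 1171 ± 57.2 in siCCNF and 1155 ± 22.3 in siKEAP1/siCCNF (SD, n = 3). Its falls after siCCNF (-0.18 ± 0.06, adjusted p = 0.0369) and in cells depleted of both (-0.20 ± 0.06, adjusted p = 0.0238) were lost without siCONTROL replicate 2 or 3 and in other settings, with adjusted p up to 0.164. Timp3, the inhibitor of Adam17 that is bound to matrix, had 91.2, 167 and 183 CPM in siCONTROL and passed the test in no comparison, with log2 changes against siCONTROL of 0.10, 0.19 and 0.04. The low control value came from siCONTROL replicate 1, and without that library these changes were -0.16, -0.06 and -0.22. Timp4 had 12, 20, 17 and 20 counts in the groups and was not tested.

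Whether the effect of siCCNF differed with KEAP1 was tested as an interaction, the change from siKEAP1 to siKEAP1/siCCNF less the change from siCONTROL to siCCNF. It was above 0 for 6 members and below 0 for 12, beside 10.6% and 10.5% of all genes, and past 2-fold for 5 (Mmp9, Mmp10, Mmp13, Adam23 and Adamts5), beside 6.19%. For Adamts5 siCCNF raised the level by 1.68 without and 3.97 with depletion of KEAP1 (interaction 2.29 ± 0.25, adjusted p = 5.31e-05). Mmp9 changed by 0.44 without (adjusted p = 0.0590) and fell by 1.18 with depletion of KEAP1 (interaction -1.62 ± 0.24, adjusted p = 0.000441). Adam23 fell by 0.34 without and by 1.94 with it (interaction -1.59 ± 0.12, adjusted p = 3.68e-06), where the fall of 0.34 missed the threshold in limma on log2(FPKM + 1) (adjusted p = 0.0667). The siCCNF effects without and with siKEAP1 rest on different libraries, and across the 41 members 30 had the same sign (Pearson r 0.500 across genes, as a description). The correlation was 0.820 over the 13 Adam genes, 0.692 over the 13 Adamts genes and -0.0146 over the 12 Mmp genes. Among the Mmp genes 8 had the same sign in both, and 11 of the 13 Adamts genes were above 0 in both. The Mmp value includes Mmp10 (2.61 without and -3.03 with depletion of KEAP1) and Mmp13 (2.69 and -0.31). Their siCONTROL totals were only 3 and 6 counts, so it is no measure of the better-counted Mmp genes.

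**Figure D4:**
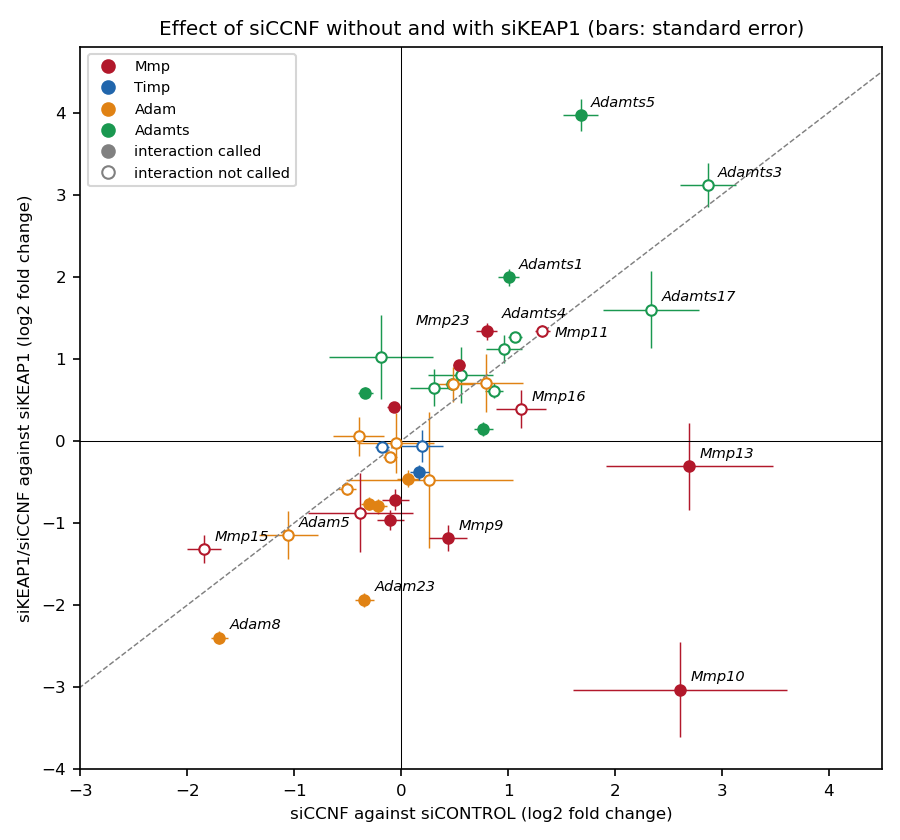
Log2 effect of siCCNF without (x axis) and with (y axis) depletion of KEAP1 for the 41 tested members, with standard errors as bars and equality as the dashed line. Filled points had a called interaction: Adamts5 and Adamts1 lie above the line, and Mmp9, Mmp10 and Adam23 below it.

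Genes that activate, inhibit or guide these enzymes, or are related to them (34 listed, 27 tested), moved as well. The list also held Adamts-like proteins without a protease domain, the matricellular protein Sparc and the endocytic receptor Lrp1. After siKEAP1 9 rose and 8 fell, beside 20.4% and 20.2% of all genes, after siCCNF 11 rose and 5 fell, beside 22.5% and 25.5%, and in cells depleted of both 8 rose and 7 fell, beside 20.6% and 23.6%. Plau, the urokinase that activates plasmin, was at 83.8, 79.4 and 73.3 CPM in siCONTROL and 28.7, 32.9 and 29.4 in siKEAP1 (log2 change -1.38 ± 0.08, adjusted p = 2.18e-08). Its receptor Plaur went from 37.0, 32.6 and 32.1 to 90.2, 106 and 100 CPM (1.54 ± 0.09, adjusted p = 4.21e-08), and the inhibitor Serpinb2 rose by 3.76 ± 0.38 (adjusted p = 4.78e-06). Of the tetraspanins that bind Adam10 and carry it to the surface, Tspan15 rose by 1.07 ± 0.07 after siKEAP1 and fell by 1.05 after siCCNF, and Tspan5 moved by 0.67 and -0.58. Tspan14 was lower after both, with -0.50 ± 0.08 (adjusted p = 0.000164) and -0.82 ± 0.08 (adjusted p = 1.81e-06), and Tspan17 and Tspan33 passed the test in neither. Of the 2 listed iRhoms, which carry Adam17, Rhbdf2 (25.1 CPM in siCONTROL) rose by 0.76, 0.70 and 0.94 in the depleted groups. The more abundant Rhbdf1 (92.0 CPM) changed by -0.22 after siKEAP1 (adjusted p = 0.0142) and by 0.23 after siCCNF (adjusted p = 0.00986). Reck, a membrane-anchored inhibitor of matrix metalloproteases, was at -0.05 after siKEAP1 (adjusted p = 0.769) and rose by 0.92 after siCCNF (adjusted p = 1.15e-05).

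Some members overlap another gene, and because the strand used in counting is not given in the sources used here, reads of the pair may be shared. Timp1, Timp3 and Timp4 overlap the synapsin genes Syn1, Syn3 and Syn2 on the other strand, and Syn1 itself changed by 2.15 after siKEAP1 and -1.41 after siCCNF. Timp2 overlaps Cep295nl, Mmp11 overlaps Chchd10, Adam17 overlaps Iah1 and Adamts7 overlaps Tbc1d2b. Tbc1d2b changed by -0.54 after siKEAP1 and by 0.42 after siCCNF.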

How the data were processed

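RNA from 12 libraries of C2C12 cells (4 groups of 3) was measured as 1 table that the authors deposited with raw counts per gene and FPKM per gene and library. The submitters' processing notes name HISAT2 and GRCm39. The counting program, the annotation and the strand setting are not given in the sources used here, and the coordinates in the table were those of GRCm38, where 77 of the 78 members matched GENCODE M21. The authors' FPKM values, scaled by gene length and library depth, were used for levels between genes, sums over a family and as alternatives with a pseudocount. A further 15 columns with the authors' own fold changes and p-values were not used.

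Genes were filtered by edgeR's filterByExpr, scaled by TMM and fitted over all 12 libraries with glmQLFit and glmQLFTest (edgeR 4.0.16 in R 4.3.3), and p-values were adjusted by Benjamini-Hochberg over all 15122 genes tested. Standard errors were the log2 fold change divided by the square root of F. The 6 comparisons were each depleted group with siCONTROL, siKEAP1/siCCNF with each siRNA alone, and the interaction. Members described with values numbered 27 in all. They passed 2-fold against siCONTROL or in the interaction, or were Timp genes, in a family's top 3 by FPKM or on a short list. Members and lists were chosen with earlier results of these data known. Replicates are labelled biological. Those of the same number did not deviate together (r from -0.277 to 0.205, over 0.1 in 4 of 18 pairs) and were not treated as pairs. Alternatives were total library sizes, DESeq2 1.42.0, limma 3.58.1 on log2(FPKM + 1) or log2(FPKM + 0.1), no filter, at least 10 counts in every library, a replicate block, the compared libraries alone, a 2-fold rule and leaving out libraries. The scripts were tested on simulated data. Some results are not reported here.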

Additional observations from a re-analysis of the deposited data

Results flagged for a closer look

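The effect of siCCNF differed between control cells and KEAP1-depleted cells by the interaction test for 18 of the 41 tested members (edgeR's quasi-likelihood test, adjusted p under 0.05). Of all genes tested, 10.6% were called above 0 and 10.5% below 0. The interaction on the log2 scale was above 0 for Mmp2 (0.38), Mmp14 (0.48), Mmp23 (0.54), Adamts1 (0.99), Adamts2 (0.92) and Adamts5 (2.29). It was below 0 for Mmp9 (-1.62), Mmp10 (-5.64), Mmp13 (-3.0), Timp1 (-0.55), Adam8 (-0.70), Adam9 (-0.58), Adam10 (-0.52), Adam17 (-0.46) and Adam23 (-1.59). Mmp19 (-0.66), Mmp28 (-0.86) and Adamts14 (-0.63), which are named here for their values, were below 0 as well. The values of Mmp10 and Mmp13 rest on siCONTROL totals of 3 and 6 counts. The Mmp13 interaction was lost in 11 settings, among them leaving out 9 single libraries, with adjusted p of 0.0502 to 0.0964. That of Adam10 was lost without siKEAP1 replicate 2 or 3 or siCCNF replicate 1 or 2 (0.0516 to 0.0540). Keap1 itself was lowered less in siKEAP1/siCCNF than in siKEAP1 (difference 0.93 on the log2 scale), which moves with the interaction, and its part was not tested.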

How the results depend on the processing

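Leaving out 1 library at a time gave 22 to 26 called members for siKEAP1 against siCONTROL (24 with all libraries), 21 to 24 for siCCNF (23), 21 to 24 for siKEAP1/siCCNF (24), 27 to 32 for siKEAP1/siCCNF against siKEAP1 (29), 6 to 11 against siCCNF (7) and 16 to 18 for the interaction (18). The highest of these against siCCNF, 11, came without siCONTROL replicate 1. Without that library and siKEAP1/siCCNF replicate 3 together, the counts were 27, 26, 24, 32, 13 and 20 in the same order. For siKEAP1/siCCNF against siCONTROL the count was 18 with the compared libraries alone and 26 with no filter. For siCCNF against siCONTROL it was lowest, at 20, with limma on log2(FPKM + 1). Requiring a 2-fold change left 10, 12, 6, 14, 1 and 5 members, by construction. With the replicate block the counts were 23, 22, 22, 29, 7 and 18. The numbers are not known to pair the samples, and Mmp16 in siKEAP1/siCCNF (adjusted p = 0.0570) and Timp2 in siCCNF (adjusted p = 0.0502) lost their calls under the block. Of 156 values of members described, 101 were called. Of these, 85 kept their call in each alternative run that tested them, 16 lost it in at least 1 and 13 lost it when 1 library was left out. The 2-fold rule was applied to the counts of members only. Mmp10, Mmp13 and Adamts17 had libraries with fewer than 10 counts, so the filter of at least 10 counts did not test them. For those losses the cause was not tested, and no alternative turned the direction of a called value. Of the values that were not called, some changed sign, and for Timp3 all 3 changes against siCONTROL did so without siCONTROL replicate 1. Other uncalled values were called in some alternative runs. Without siCONTROL replicate 1, Timp2 was lower after siKEAP1 (-0.19, adjusted p = 0.0130) and Timp1 was higher after siCCNF (0.26, adjusted p = 0.0188). Adam9 was lower after siCCNF without that library (-0.31, adjusted p = 0.00338) and with DESeq2 (-0.22, adjusted p = 0.0397). Alternative scalings moved the median of all genes by less than 0.1 on the log2 scale. Depth limits Mmp10, Mmp13 and Adamts17, and the untested members most of all, since 15 of these had only a few counts.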
